A study of Mus musculus with 24 samples.

Results

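The genes described here are 40 markers of macrophages and other myeloid cells, followed in whole hearts of adult male mice with or without a mutant thyroid hormone receptor and with or without a surplus of thyroid hormone before birth. They were chosen by symbol, and a symbol with several probe sets was to be read from its brightest probe set, although none of the members had more than 1. Of the 40 genes, 39 were measured, and all 39 entered the tests across 19801 genes. Cd68 was not analysed here. RNA of 24 hearts was hybridised to Clariom S mouse arrays, 1 array per mouse. The 4 groups of 6 mice each were wild-type mice (TRalpha1R384+/+) and heterozygous mutants (TRalpha1R384+/m, written TRα1+m below) born to dams that drank plain albumin solution, and the same genotypes born to dams given T3. All mice were of the strain C57/BL6NCr, were 4 to 5 months old by the labels, lived at 22 °C and were never treated themselves. By the labels, treated dams drank 0.5 mg/L T3 with 0.01% bovine serum albumin between embryonic days 12.5 and 18.5, and control dams drank the albumin alone. The study's methods name an earlier last day, and which applied is not known here. The mutation lowers the affinity of TRα1 for T3 and is carried in the germ line, so that macrophages carry it as well as heart muscle cells. The labels name no dams or litters, and the p-values therefore treat littermates, if there were any, as independent mice.

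Macrophages settle in the heart before birth and renew themselves there, depending on signals through the receptor Csf1r and on the transcription factor PU.1, which Spi1 encodes. Resident cells that carry Timd4, Lyve1 and Folr2 clear dying cells and debris, whereas Ccr2-bearing cells are replaced by monocytes from the blood. In a whole organ, a lower level of such markers can come from fewer cells or from less RNA per cell, and these arrays cannot part the former from the latter.

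Expression was read as log2 values after robust multi-array averaging (RMA), on which a difference of 1 is a 2-fold difference. Levels are compared between mice and not between genes, since probe sets differ in brightness. All 39 members had means above 4, the expression limit in the study's methods, in each of the 4 groups, and 37 of them were above 4 in every one of the 24 hearts. The marker list of heart muscle cells had mean levels of 17.86 to 18.53 per mouse, near the top of the table, whose highest value was 19.93. Array medians lay between 6.85 and 6.95. Along the first principal component, which held 17.5% of the variance, 5 mice stood apart from the rest: TRα1+m mouse 4, T3-exposed wild-type mice 14 and 15, and T3-exposed TRα1+m mice 16 and 17. All 5 had label numbers below 20, as had 9 mice in all, and what the numbers stand for is not stated. The members also set mouse 16 apart, which had the highest value of all 24 hearts in 25 of the 39 genes and the highest of its group in 31. The share over all tested genes was not counted, and such values were not particular to the members. All 7 tested fibroblast markers also had their highest value of the 24 hearts in mouse 16, among them Col1a1 at 12.52 and Col3a1 at 15.07.

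The first question was whether the mutation alone went with other levels of macrophage transcripts. In offspring of untreated dams, 4 of the 39 members were lower in TRα1+m hearts and 0 were higher (limma, adjusted p below the limit of 0.05). That is 10.3% of the members, against 1.06% of all tested genes called lower and 0.566% called higher. The 4 genes were Csf1r, the receptor for the macrophage growth factors; Cbr2, a carbonyl reductase found in resident macrophages; Cybb, the catalytic chain of the phagocyte oxidase; and Timd4, a receptor for the phosphatidylserine of dying cells. Of the 39 differences 32 lay below 0, with a median of −0.37 against −0.01 over all tested genes, of which 51.1% lay below 0. At an unadjusted p under 0.05, 15 members were lower and 0 higher, where 6.58% of all genes were lower and 4.94% higher. In 9 members every TRα1+m heart lay below every wild-type heart, against 1.83% of all tested genes, and in 0 members the groups parted the other way (0.924% of all genes). The 9 were Csf1r, Itgam, Cybb, Mpeg1, Fcgr2b, Ly86, C1qb, C1qc and Cbr2. Without the 5 mice set apart by the principal component 8 members were called, namely C1qb, C1qc, Cbr2, Csf1r, Cybb, Fcgr2b, Ly86 and Spi1, with a median of −0.38.

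**Figure D1:**
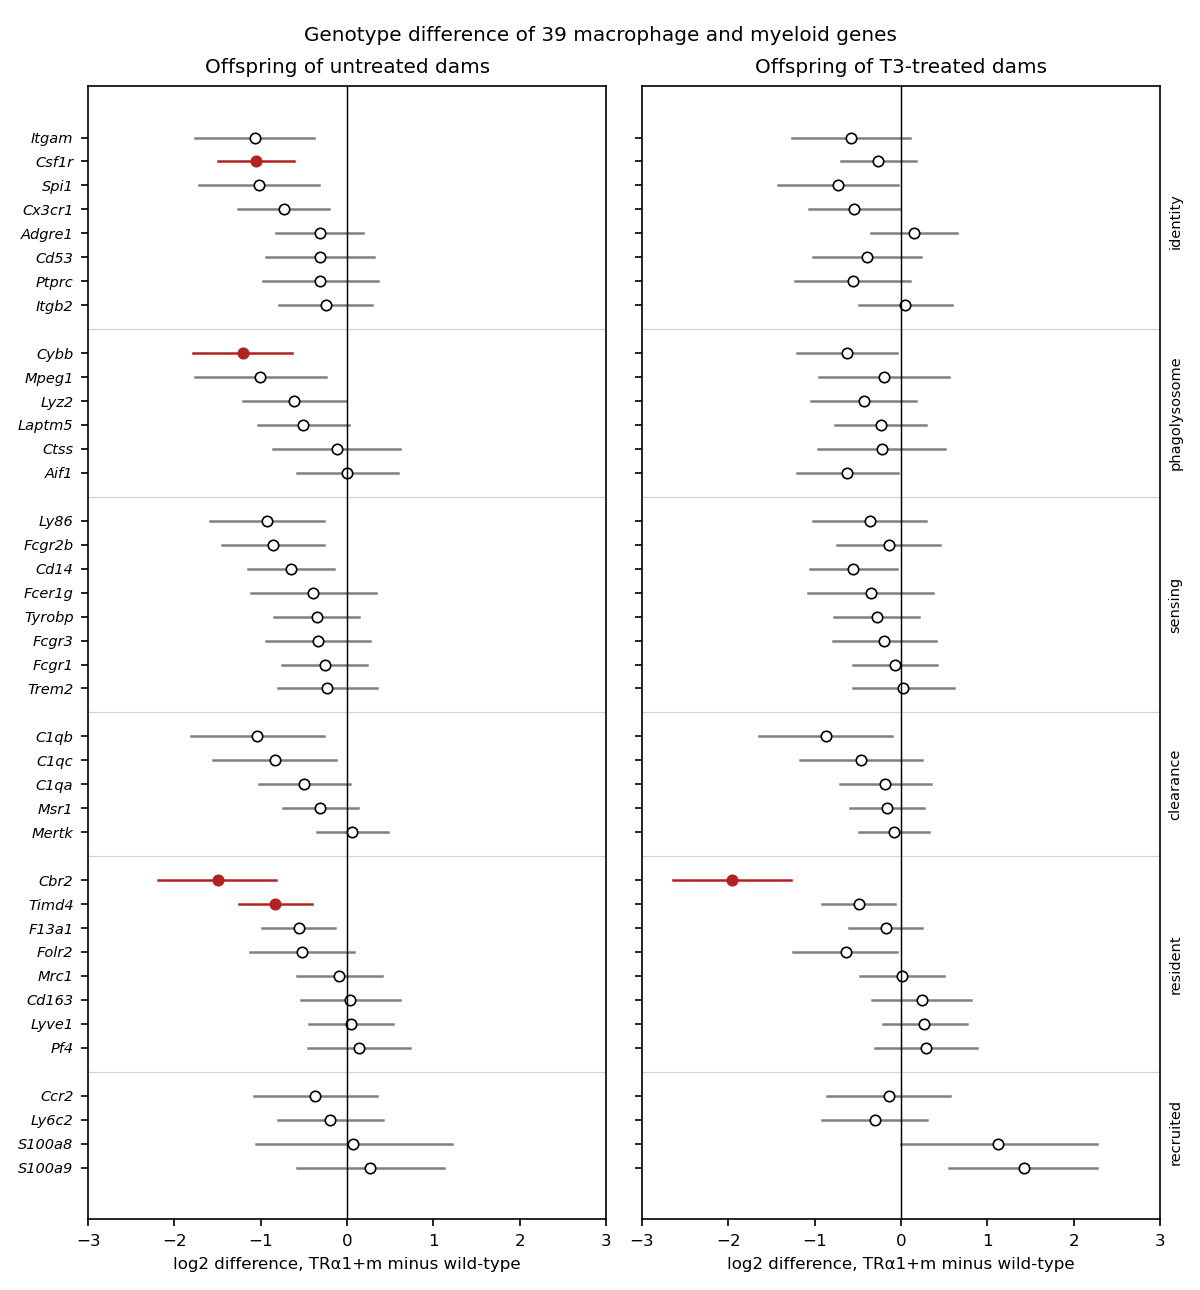
Log2 differences between TRα1+m and wild-type hearts for 39 genes, ordered by role, in offspring of untreated dams (left) and of T3-treated dams (right). Points are limma estimates from 6 against 6 mice, lines are 95% confidence intervals and filled red points passed the adjusted p of 0.05: 4 genes on the left and Cbr2 alone on the right. On the left 32 of 39 points lie below 0 and on the right 30.

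Among the genes of myeloid identity, Csf1r separated the untreated genotypes most clearly. Its values ran from 10.47 to 10.94 (median 10.76) in untreated wild-type hearts and from 9.34 to 9.93 (median 9.73) in untreated TRα1+m hearts. After maternal T3 they ran from 10.15 to 11.11 (median 10.48) in wild-type and from 9.65 to 11.30 (median 10.13) in TRα1+m hearts. The untreated groups thus stood wholly apart, and the T3-exposed groups overlapped. Without T3 the difference was −1.06 ± 0.21 (SE, n = 6 and 6; 2.08-fold; limma adjusted p = 0.00507), and it was called in all 24 fits that left out 1 mouse. After T3 it was −0.26 ± 0.21 (adjusted p = 0.667), and −0.46 (adjusted p = 0.222) without mouse 16, the highest of its group. Each SE printed here rests on the spread within all 4 groups, and not only within the 2 compared.

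Spi1, whose product PU.1 directs cells into the myeloid lineage, ran from 10.55 to 11.41 (median 11.22) in untreated wild-type and from 9.18 to 10.58 (median 10.18) in untreated TRα1+m hearts. After maternal T3 the ranges were 11.13 to 12.16 (median 11.50) and 10.02 to 12.74 (median 10.32). A single pair of the 36 possible untreated pairs had the TRα1+m heart above the wild-type heart, and after T3 the mutants' highest value again came from mouse 16. Over both treatments Spi1 was lower by −0.88 ± 0.24 (1.84-fold, adjusted p = 0.0239). The 2 separate differences, −1.02 without T3 and −0.73 after it, had adjusted p values of 0.152 and 0.332. Without mouse 16 they became −1.02 (adjusted p = 0.0267) and −1.11 (adjusted p = 0.019).

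Itgam, the integrin chain CD11b, spanned 7.27 to 7.68 (median 7.47) in untreated wild-type and 5.12 to 7.17 (median 6.44) in untreated TRα1+m hearts. In T3-exposed mice it spanned 7.01 to 8.21 (median 7.63) and 5.88 to 8.53 (median 7.02). The wild-type hearts were closely grouped and the mutant hearts widely spread. Itgam was lower over both treatments by −0.82 ± 0.24 (adjusted p = 0.0332), a call lost in 8 of the 24 fits without 1 mouse. Cx3cr1, the fractalkine receptor, spanned 5.89 to 7.46 (median 6.90) and 5.59 to 6.88 (median 6.01) in untreated wild-type and TRα1+m hearts. After T3 it spanned 5.71 to 6.96 (median 6.14) and 5.53 to 6.11 (median 5.65). Here the groups overlapped at both treatments, and mouse 16, at 5.77, was not high. The difference over both treatments was −0.64 ± 0.18 (adjusted p = 0.0314) and was lost in 8 of 24 such fits.

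Adgre1, a surface antigen of mouse macrophages, did not pass in any comparison. It ranged from 7.21 to 8.84 (median 8.31) and from 7.42 to 8.21 (median 7.93) in untreated wild-type and TRα1+m hearts, and from 7.66 to 8.35 (median 8.04) and 7.54 to 9.22 (median 8.06) after T3. Its genotype difference was −0.32 ± 0.24 without T3 (95% confidence interval −0.82 to 0.18). The other 3 identity genes, the leukocyte phosphatase Ptprc, the tetraspanin Cd53 and the integrin chain Itgb2, had differences of −0.32 to −0.25 without T3, with a smallest unadjusted p of 0.31.

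**Figure D2:**
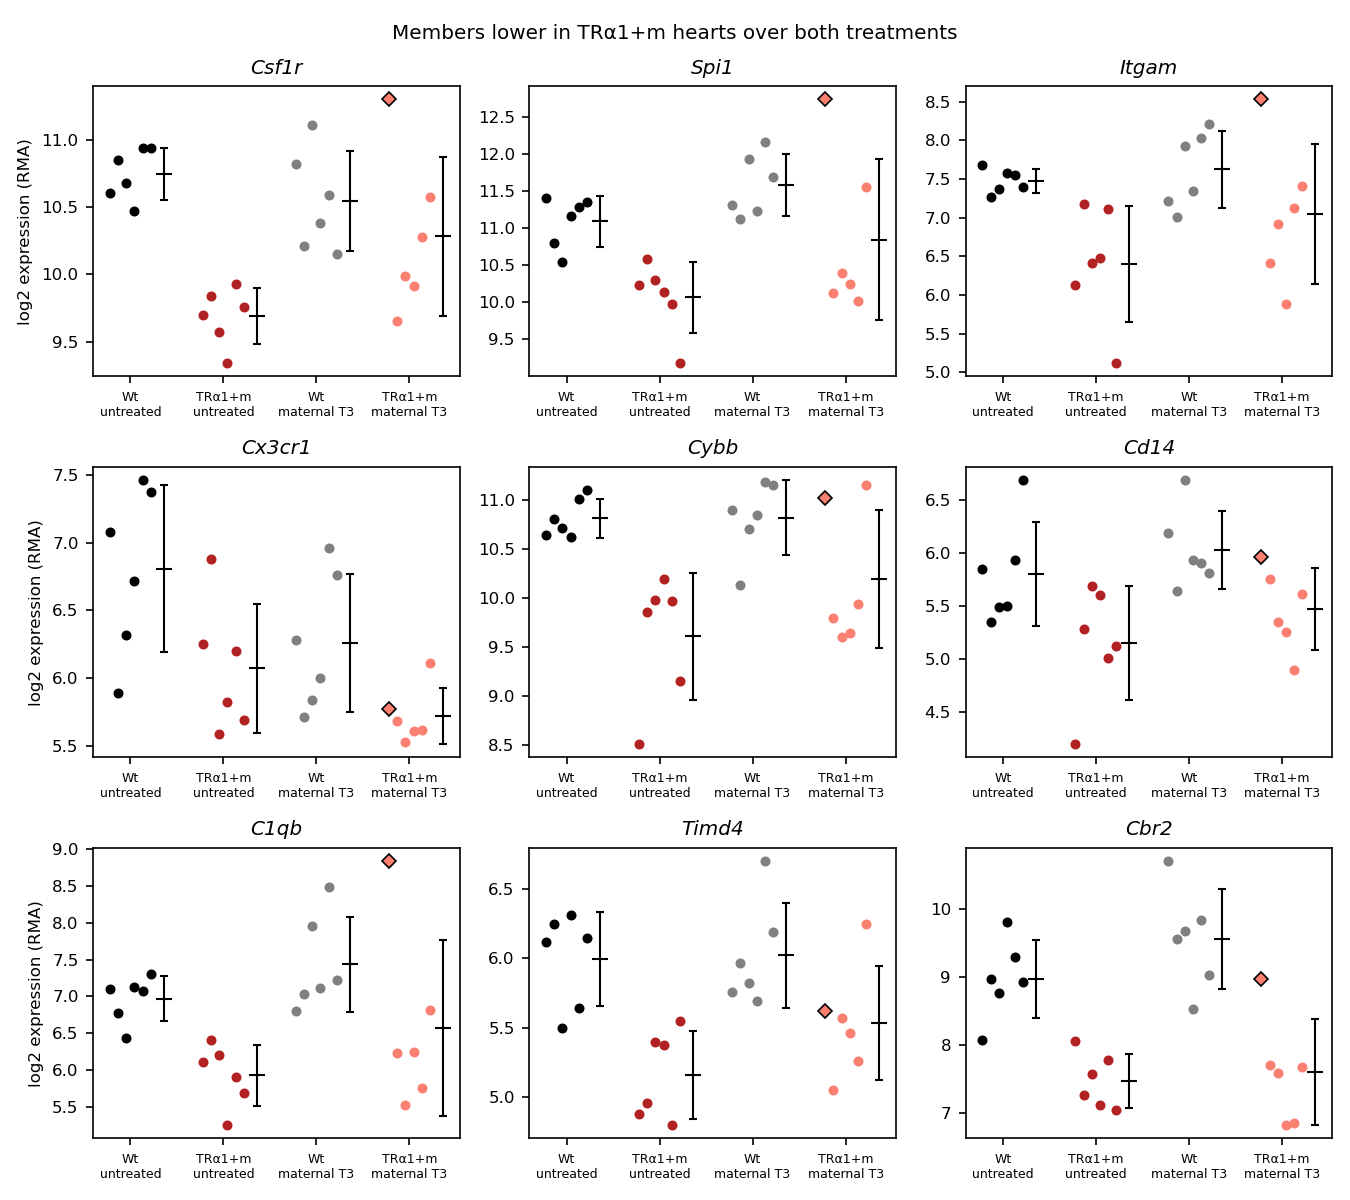
Log2 expression of the 9 members that were lower in TRα1+m hearts over both treatments, in the 24 hearts. Each point is a mouse, bars beside the points are the mean and SD of 6 mice, and the diamond is mouse 16. In untreated offspring Csf1r, Itgam, Cybb, C1qb and Cbr2 do not overlap between the genotypes, and after maternal T3 the diamond lies at the top of its group in 6 of the panels.

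PU.1 binds near many myeloid genes, and the promoters of the members were searched for 2 forms of its motif on either strand, GAGGAAGT and the shorter GAGGAA, which the longer form contains. RefSeq windows (GRCm38.p6) of 250 bases before to 50 bases after the start were at hand for 31 of the 40 members, Cd68 included. The long form occurred in 7 of the 31 genes (22.6%), against 3.69% of the 27025 genes with a window, and the short form in 19 (61.3%) against 31.3%. The 7 with the long form were C1qc, Cd53, Ctss, F13a1, Ly6c2, Pf4 and S100a8, none of which was called in the main fit. Of the 9 genes lower over both treatments, Itgam, C1qb, Cbr2 and Cybb had the short form alone. Timd4 and Cx3cr1 had neither, and Csf1r, Spi1 and Cd14 were not searched. In Cybb the short form lay 10 to 15 bases after the start. A match is a description of letters and not a bound site. The 100 bases upstream of the start are printed for the 3 called genes that carry the short motif there. Capitals mark GAGGAA or its reverse complement TTCCTC, and each run reads 5′ to 3′ on the strand of its gene.
Itgam, chr7:128062540-128062639, plus strand: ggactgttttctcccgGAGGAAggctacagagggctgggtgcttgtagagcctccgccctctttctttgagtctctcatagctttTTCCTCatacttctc
C1qb, chr4:136886201-136886300, minus strand: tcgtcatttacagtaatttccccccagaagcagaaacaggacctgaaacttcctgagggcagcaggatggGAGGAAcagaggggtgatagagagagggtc
Cbr2, chr11:120732022-120732121, minus strand: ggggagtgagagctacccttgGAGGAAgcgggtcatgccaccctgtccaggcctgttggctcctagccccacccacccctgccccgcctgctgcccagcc

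The genes of the phagosome and lysosome were led by Cybb. It ranged from 10.62 to 11.10 (median 10.76) in untreated wild-type and from 8.51 to 10.19 (median 9.91) in untreated TRα1+m hearts. After T3 it ranged from 10.13 to 11.18 (median 10.88) and from 9.60 to 11.15 (median 9.87). Without T3 no mutant heart reached the lowest wild-type heart. After T3, mutant mice 16 and 55 lay among the wild-type hearts at 11.02 and 11.15, and the other 4 lay at 9.60 to 9.94. The difference was −1.21 ± 0.28 without T3 (2.31-fold, adjusted p = 0.018), a call lost without wild-type mouse 58 or TRα1+m mouse 4 or 54 (highest adjusted p = 0.0547). It was −0.62 ± 0.28 after T3 (adjusted p = 0.3), and −0.92 ± 0.20 over both (adjusted p = 0.00353).

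Mpeg1, a pore-forming protein that acts on engulfed microbes, ran from 6.97 to 8.24 (median 7.52) in untreated wild-type and from 5.83 to 6.94 (median 6.65) in untreated TRα1+m hearts. In T3-exposed hearts it ran from 6.85 to 8.08 (median 7.55) and from 6.09 to 9.23 (median 7.06). The untreated groups did not overlap, yet the difference of −1.01 ± 0.37, by the spread shared by all 4 groups, had an adjusted p of 0.223. Lyz2, the lysozyme of myeloid cells, ran from 11.54 to 12.22 (median 11.96) and from 10.92 to 11.74 (median 11.35) without T3, and from 11.94 to 13.63 (median 12.52) and 11.46 to 13.91 (median 11.96) after it. Its lowest values were in untreated mutants and its highest in T3-exposed mice of both genotypes. Ctss, a lysosomal cysteine protease, was alike in the untreated genotypes, at 7.72 to 8.54 (median 7.91) and 7.71 to 8.14 (median 7.93), and ran from 8.01 to 9.94 (median 8.54) and from 7.23 to 10.45 (median 8.40) after T3. The remaining Laptm5, a lysosomal membrane protein, and Aif1, an actin-binding protein of macrophages, differed by −0.51 and 0.00 without T3 (smallest adjusted p = 0.461).

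Of 8 genes for immune sensing, all 8 had differences below 0 without T3 and none passed on its own. Ly86, the partner of a receptor related to the endotoxin receptor, spanned 7.62 to 8.40 (median 8.02) in untreated wild-type and 6.75 to 7.42 (median 7.01) in untreated TRα1+m hearts. After T3 it spanned 7.71 to 8.45 (median 8.11) and 6.41 to 9.73 (median 7.56). Fcgr2b, the inhibitory receptor for IgG, spanned 8.62 to 9.12 (median 8.71) and 7.64 to 8.20 (median 7.94) without T3, and 8.05 to 9.13 (median 8.67) and 7.10 to 9.63 (median 8.44) after it. Both genes parted the untreated genotypes without overlap and overlapped after T3. Their differences without T3 were −0.93 ± 0.32 and −0.86 ± 0.29, with adjusted p values of 0.177 and 0.161. These SEs use the spread of all 4 groups. For Ly86 the SD was 0.32 and 0.27 in untreated wild-type and TRα1+m hearts, and 1.11 in T3-exposed TRα1+m hearts. For Fcgr2b it was 0.21, 0.21 and 0.96. Cd14, the co-receptor for endotoxin, spanned 5.35 to 6.69 (median 5.67) and 4.20 to 5.69 (median 5.21) without T3, and 5.64 to 6.69 (median 5.92) and 4.90 to 5.97 (median 5.49) after it. Overlap was present at both treatments, and Cd14 was lower over both by −0.60 ± 0.17 (adjusted p = 0.0337), a call lost in 10 of 24 fits without 1 mouse.

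The remaining genes of the same class held no call. Fcgr3, an activating receptor for IgG, ran from 9.35 to 10.31 (median 9.89) and from 9.21 to 10.03 (median 9.58) in untreated wild-type and TRα1+m hearts, and from 9.75 to 10.84 (median 10.19) and 9.45 to 11.76 (median 9.51) after T3. Tyrobp, the signalling adaptor DAP12, ran from 5.52 to 6.12 (median 5.77) and from 4.96 to 5.93 (median 5.43) without T3, and from 5.50 to 7.18 (median 6.07) and 5.23 to 6.69 (median 5.83) after it. In both genes the genotypes overlapped, with differences of −0.34 and −0.35 without T3 (adjusted p = 0.752 and 0.644). The IgG receptor Fcgr1, the adaptor Fcer1g and the lipid receptor Trem2 had differences of −0.39 to −0.23 without T3 (smallest adjusted p = 0.763).

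Among the genes for clearance of dying cells, the 3 chains of complement C1q varied together. C1qb ran from 6.44 to 7.30 (median 7.09) in untreated wild-type and from 5.25 to 6.41 (median 6.01) in untreated TRα1+m hearts, and C1qc from 8.17 to 8.95 (median 8.66) and from 7.09 to 8.07 (median 7.88). Neither overlapped between these groups. C1qa ran from 8.76 to 9.34 (median 9.10) and from 7.97 to 9.10 (median 8.66), with overlap. After T3, C1qb ran from 6.80 to 8.49 (median 7.16) and from 5.53 to 8.84 (median 6.24), C1qc from 8.53 to 9.69 (median 8.73) and from 7.30 to 10.61 (median 8.14), and C1qa from 9.14 to 9.63 (median 9.37) and from 8.6 to 10.72 (median 8.87). In all 3 the mutants' highest value after T3 was that of mouse 16. C1qb was lower over both treatments (−0.95 ± 0.27, adjusted p = 0.0272; lost in 4 of 24 fits without 1 mouse), and the adjusted p values were 0.129 for C1qc and 0.343 for C1qa. Without mouse 16 all 3 chains were among the genes called over both treatments. The engulfment receptor Mertk and the scavenger receptor Msr1 differed by 0.06 and −0.31 without T3 (smallest adjusted p = 0.636).

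The resident markers held both the largest differences and some of the smallest. Cbr2 showed the largest difference of the 39 genes in either treatment. It ran from 8.08 to 9.82 (median 8.95) in untreated wild-type and from 7.05 to 8.06 (median 7.42) in untreated TRα1+m hearts. After T3 it ran from 8.54 to 10.71 (median 9.62) and from 6.83 to 8.97 (median 7.64). The untreated groups did not overlap, and after T3 mouse 16 alone, at 8.97, lay above the lowest wild-type heart. The difference was −1.50 ± 0.33 without T3 (2.83-fold, adjusted p = 0.0133), −1.96 ± 0.33 after T3 (3.88-fold, adjusted p = 0.000748) and −1.73 ± 0.24 over both (adjusted p = 1.37e-05). All 3 calls held in each of the 24 fits without 1 mouse. Cbr2 is also expressed in fat and in airway cells of the mouse. The 8 tested adipocyte markers, chosen after values were seen, were all above 0 for genotype without T3 (median 0.85, 0 called; mean levels 6.67 to 8.97 in untreated wild-type and 7.02 to 9.79 in untreated TRα1+m hearts), opposite in sign to Cbr2. The 4 lung markers had mean levels of 3.88 to 6.28 per mouse, and 0 were called. Scgb1a1, a secretory protein of airway cells, stood high in the mouse with the highest Cbr2 of 3 groups: 6.83 in untreated wild-type mouse 56 (2.77 to 3.84 in the others), 8.32 in untreated TRα1+m mouse 4 (3.06 to 4.25) and 8.37 in T3-exposed wild-type mouse 13 (2.72 to 5.13). In mouse 16 Scgb1a1 was 3.53. The adipocyte marker Adipoq was highest of its group in mouse 56, at 8.06 (3.70 to 6.68 in the others), and in mouse 13, at 9.34 (4.45 to 9.33). It was lowest of its group in mouse 4, at 4.31 (6.20 to 9.08), and stood at 8.28 in mouse 16 (4.99 to 10.87). The part of fat and airway cells in the Cbr2 result was not tested.

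Timd4 ran from 5.50 to 6.31 (median 6.13) in untreated wild-type and from 4.80 to 5.55 (median 5.17) in untreated TRα1+m hearts, and from 5.69 to 6.70 (median 5.90) and 5.05 to 6.25 (median 5.52) after T3. A single untreated pair of 36 overlapped. Timd4 was lower by −0.83 ± 0.20 without T3 (1.78-fold, adjusted p = 0.0286) and by −0.66 ± 0.14 over both (adjusted p = 0.00425). The call without T3 was lost on leaving out wild-type mouse 2, 37, 56 or 58 or TRα1+m mouse 4, 5 or 53 (highest adjusted p = 0.0822), with the label number range as a covariate (adjusted p = 0.0601) and without the 5 mice set apart (0.0622), whereas that over both held in all 24 fits without 1 mouse. F13a1, the factor XIII chain of resident macrophages and platelets, ran from 9.48 to 10.19 (median 9.83) and from 8.77 to 9.93 (median 9.22) without T3, and from 9.62 to 10.73 (median 9.76) and 9.29 to 10.13 (median 9.74) after it. It overlapped in both treatments, with −0.56 ± 0.21 without T3 (adjusted p = 0.221). Folr2, a folate receptor, differed by −0.52 without T3 and −0.64 after it (adjusted p = 0.539 and 0.325).

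No difference was called in the other resident markers. Mrc1, the mannose receptor, ran from 10.09 to 10.79 (median 10.52) in untreated wild-type and from 9.86 to 10.71 (median 10.45) in untreated TRα1+m hearts, and from 10.28 to 11.31 (median 11.11) and 10.40 to 12.24 (median 10.86) after T3. Lyve1, a hyaluronan receptor also found on lymphatic vessels, ran from 9.50 to 10.52 (median 9.83) and from 9.35 to 10.55 (median 10.15) without T3, and from 9.02 to 10.22 (median 9.57) and 9.02 to 10.27 (median 9.99) after it. The genotypes overlapped almost wholly in both genes. Their differences without T3 were −0.09 (95% confidence interval −0.58 to 0.40) and 0.05 (−0.44 to 0.53), and those of the haemoglobin scavenger Cd163 and the platelet factor Pf4 were 0.03 (−0.54 to 0.61) and 0.14 (−0.45 to 0.73). Over all 8 resident markers, Cbr2 and Timd4 included, the mean deviation per mouse was −0.20 to 0.40 in untreated wild-type and −0.48 to −0.17 in untreated TRα1+m hearts. The 6 lymphatic markers, which bear on Lyve1, had 0 calls and a median of 0.06.

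**Figure D3:**
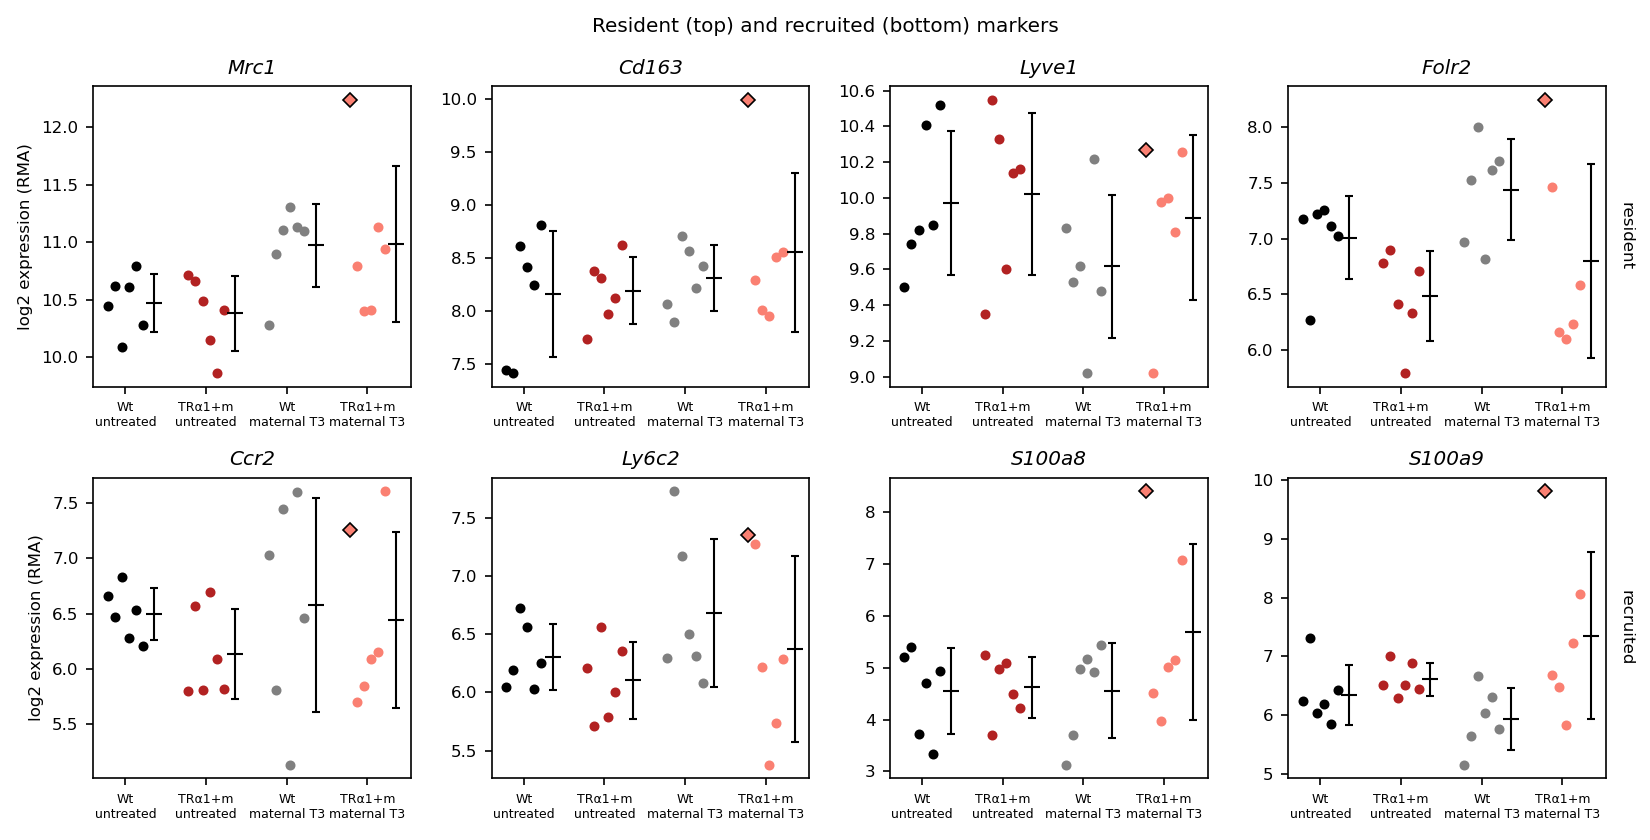
Log2 expression of 4 resident markers (top) and 4 recruited markers (bottom) in the 24 hearts. Each point is a mouse, bars are the mean and SD of 6 mice, and the diamond is mouse 16. Mrc1, Cd163 and Lyve1 overlap between the genotypes, and the S100a8 and S100a9 values of mouse 16, 8.41 and 9.81, lie above those of all other mice.

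The 4 markers of recruited cells held no call. Ccr2, the receptor by which monocytes follow Ccl2, spanned 6.21 to 6.83 (median 6.50) in untreated wild-type and 5.80 to 6.70 (median 5.95) in untreated TRα1+m hearts, and 5.13 to 7.60 (median 6.74) and 5.70 to 7.61 (median 6.12) after T3. Ly6c2, a surface protein of inflammatory monocytes, spanned 6.03 to 6.73 (median 6.22) and 5.71 to 6.56 (median 6.10) without T3, and 6.08 to 7.73 (median 6.41) and 5.38 to 7.35 (median 6.25) after it. The spread was wider after T3 in both genotypes, and the groups overlapped throughout. The differences without T3 were −0.37 ± 0.35 and −0.20 ± 0.29 (adjusted p = 0.783 and 0.884).

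S100a8 and S100a9 form calprotectin, a protein of neutrophils and fresh monocytes. Without T3, S100a8 spanned 3.34 to 5.40 (median 4.82) in wild-type and 3.71 to 5.24 (median 4.74) in TRα1+m hearts, and S100a9 spanned 5.85 to 7.31 (median 6.21) and 6.29 to 7 (median 6.52). After T3, S100a8 spanned 3.13 to 5.44 (median 4.95) in wild-type and 3.98 to 8.41 (median 5.08) in TRα1+m hearts, and S100a9 spanned 5.16 to 6.67 (median 5.90) and 5.83 to 9.81 (median 6.96). The high values were those of mice 16 and 55, at 8.41 and 7.08 for S100a8 and at 9.81 and 8.07 for S100a9. The genotype difference of S100a9 after T3 was 1.42 ± 0.42 (2.67-fold), higher in 32 of 36 pairs, with an adjusted p of 0.065. It was 0.92 (adjusted p = 0.124) without mouse 16 and passed in 2 of the 24 fits without 1 mouse, those without mouse 49 or mouse 50. Of 10 tested neutrophil markers 0 were called. In mouse 16 the neutrophil genes Lcn2 and Retnlg stood at 9.96 and 7.61, against 4.68 to 5.32 and 3.66 to 5.37 in the other 5 mice of the group. Mmp8 and Mmp9 stood at 4.97 and 5.50, against 3.54 to 4.73 and 3.40 to 4.37. The genes Ngp, Camp, Ltf, Mpo and Elane stood at 3.62 to 5.63 in mouse 16 and at 3.22 to 5.82 in the other 5 mice. The receptors Csf3r and Cxcr2 were high in mice 16 and 55 alike, at 7.54 and 7.28 for Csf3r and at 6.23 and 6.72 for Cxcr2, against 5.09 to 6.63 and 4.82 to 5.46 in the other 4. Over the 10 markers the mean level was 6.16 in mouse 16 and 5.30 in mouse 55, the highest of the 24 hearts. The part of neutrophils in the S100a9 values was not tested.

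After maternal T3, Cbr2 alone of the 39 members was lower in TRα1+m hearts and 0 were higher, which is 2.56% against 1.66% of all tested genes called lower and 1.13% called higher. The differences lay below 0 in 30 of 39 members (50.9% of all genes), with a median of −0.23 against −0.01 over all genes. At an unadjusted p under 0.05, 9 members were lower and 1 was higher, where 7.37% and 6.33% of all genes were. No member parted the T3-exposed genotypes without overlap (1.08% of all genes did so downwards and 0.818% upwards). Without mouse 16 the members called were 5, namely C1qb, C1qc, Cbr2, Folr2 and Spi1, with 35 of 39 below 0 and a median of −0.50. Without the 5 mice set apart by the principal component they were 3, namely C1qb, Cbr2 and Folr2, with a median of −0.41. The result was also read within each range of label numbers. Among mice numbered above 30, 3 wild-type and 4 TRα1+m, the median was −0.43 with 33 of 39 below 0. Among those below 20, 3 wild-type and the TRα1+m mice 16 and 17, the median was 0.14 with 15 of 39 below 0, and the pooled direction did not hold within that range. Without T3 the medians were −0.47 within the upper range and −0.39 within the lower, which held 1 wild-type mouse.

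Over both treatments together 9 members were lower in TRα1+m hearts and 0 higher, or 23.1% of the members against 3.70% of all tested genes lower and 2.59% higher. They were, by adjusted p, Cbr2, Cybb, Timd4, Csf1r, Spi1, C1qb, Cx3cr1, Itgam and Cd14. The identity class held 4 of the 9, the resident class 2, and phagolysosome, sensing and clearance 1 each. Differences below 0 were found in 34 of 39 members (51.5% of all genes), with a median of −0.35 against −0.01. At an unadjusted p under 0.05, 16 were lower and 1 was higher (9.58% and 8.29% of all genes, 17.9% together). Without mouse 16 the count rose to 16 and included all 9, with C1qa, C1qc, Fcgr2b, Folr2, Ly86, Lyz2 and Mpeg1 added. Without the 5 mice set apart by the principal component it was 14, also including all 9. Some of the 9 calls were lost on leaving out any 1 of several mice. C1qb lost its call without mouse 47, 49, 51 or 52 (highest adjusted p = 0.0539), and Itgam without mouse 2, 4, 15, 17, 47, 48, 50 or 54 (0.0616). Cx3cr1 lost it without mouse 2, 6, 47, 48, 52, 54, 57 or 58 (0.0614), and Cd14 without mouse 2, 4, 13, 15, 49, 50, 51, 53, 57 or 58 (0.065). The calls of Cbr2, Cybb, Timd4, Csf1r and Spi1 held in all 24 such fits. The 2-factor test of the study's methods was also run, corrected here over all 19801 tested genes. The study applied it to genes of heart rate regulation and potassium channels. Here it called 4 of the 9, Cbr2, Csf1r, Cybb and Timd4, and not Spi1, C1qb, Cx3cr1, Itgam or Cd14.

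Maternal T3 itself changed no member past the adjusted limit. In wild-type mice limma called 0 of 39, against 0% of all genes lower and 0.00505% higher. At an unadjusted p under 0.05, 1 member was lower and 3 were higher there (4.95% and 6.03% of all genes). In TRα1+m mice 0 were called (0.0758% of all genes lower, 0.0101% higher), and at an unadjusted p under 0.05, 0 were lower and 9 higher (4.32% and 3.98%, or 8.31% together). In neither genotype did a member part the treatments without overlap (0.192% and 0.535% of all genes in wild-type, 0.298% and 0.227% in mutant mice). With the genotypes pooled, 0 were called (0% lower, 0.0101% higher), and at an unadjusted p under 0.05, 1 was lower and 8 were higher (7.45% and 8.82%, or 16.3% together). Differences lay above 0 in 30 of 39 members in wild-type mice (47.7% of all genes above 0 and 52.3% below), with a median of 0.15 against −0.02 over all genes. In TRα1+m mice 36 lay above 0 (49.3% and 50.7%), with a median of 0.43, and over both genotypes 35 did (47.1% and 52.9%), with a median of 0.33. The median in TRα1+m mice was 0.23 without mouse 16. Without the 5 mice set apart by the principal component the medians were 0.12 in wild-type mice with 15 of 39 below 0, 0.10 in TRα1+m mice with 13 below 0, and 0.15 over both genotypes with 8 below 0. Within the label numbers above 30 they were 0.10, 0.21 and 0.19, and within those below 20 they were 0.31, 0.91 and 0.61, where 1 untreated wild-type mouse stood for its group. No member was called in any of these fits. Lyz2 had the lowest p over both genotypes, at 0.80 ± 0.21 (adjusted p = 0.109), followed by Mrc1 at 0.55 ± 0.17 (adjusted p = 0.143). Cx3cr1 had the opposite sign, at −0.45 ± 0.18 (adjusted p = 0.227).

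Whether the genotype difference itself depended on maternal T3 was asked with the interaction, by subtracting the T3 effect of wild-type mice from that of the mutants. It passed for 0 of 39 members and 0 of all tested genes, with 0 members lower and 1 higher at an unadjusted p under 0.05 (2.19% of all genes were lower and 4.19% passed in either direction). It was below 0 in 8 members and above 0 in 31 (49.8% and 50.2% of all genes). That member was Csf1r, whose interaction was 0.80 (95% confidence interval 0.19 to 1.41, unadjusted p = 0.0125, adjusted p = 1). The median interaction was 0.21, and it was 0.01 without mouse 16 and 0.05, with 18 of 39 below 0, without the 5 mice set apart. The call of Csf1r without T3 and its lack after T3 were therefore not shown to differ at the adjusted limit.

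Mouse by mouse, the mean deviation of the 39 members from their overall means placed all 6 untreated TRα1+m hearts (−0.61 to −0.19) below all 6 untreated wild-type hearts (0.01 to 0.28). T3-exposed wild-type hearts lay at 0.01 to 0.73. Of the T3-exposed TRα1+m hearts, 4 lay at −0.53 to −0.22, inside the range of the untreated mutants, and mice 55 and 16 lay at 0.36 and 1.25. Each untreated TRα1+m heart had 15 to 24 of the 39 members below the lowest untreated wild-type heart. That count was 1 to 26 in T3-exposed TRα1+m hearts and 1 to 8 in T3-exposed wild-type hearts. Counts of this kind were not made over all tested genes, so no background share stands beside them. Mouse 16 had 1 such member and 30 above the highest untreated wild-type heart. The spread followed the same mouse. The median SD over the members was 0.34 in untreated wild-type, 0.41 in untreated TRα1+m, 0.46 in T3-exposed wild-type and 0.79 in T3-exposed TRα1+m hearts, the latter falling to 0.47 without mouse 16.

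**Figure D4:**
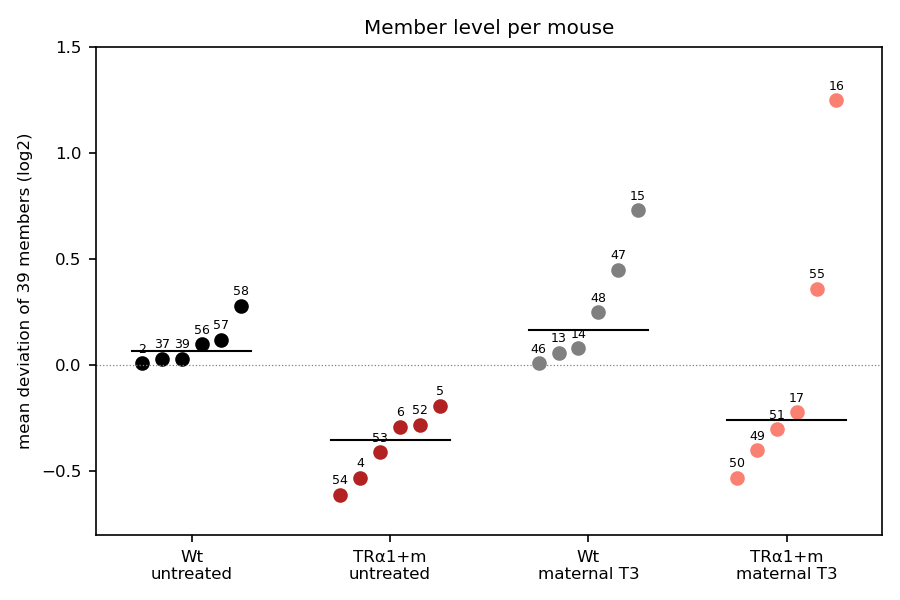
Mean deviation of the 39 members from their means over all mice, on the log2 scale, for each of the 24 hearts. Numbers are the label numbers of the mice and lines are group medians. The 6 untreated TRα1+m hearts (−0.61 to −0.19) lie below the 6 untreated wild-type hearts (0.01 to 0.28), and mouse 16 lies at 1.25.

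Within groups the members tended to vary together. The median correlation over the 741 pairs of members, across 24 mice after removal of group means, was 0.45, and it was 0.25 without mouse 16. The C1q chains had a median of 0.81 (0.51 without mouse 16), and S100a8 and S100a9 correlated at 0.78 (0.62). These pairs share hybridisation and mouse, and the values are descriptions across mice. The same correlations were not computed for other genes, so they are not shown to be particular to the members.

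A separate list of 41 genes held macrophage growth factors and chemokines, but also myeloid receptors, transcription factors and engulfment genes. Of the 41, 36 were measured and 34 tested. Without T3, 3 were lower in TRα1+m hearts, Cxcl12, Cx3cl1 and the receptor C3ar1, and 0 higher (1.06% and 0.566% of all genes). Csf1, the main ligand of Csf1r, ran from 13.39 to 13.88 (median 13.64) in untreated wild-type and from 12.84 to 13.91 (median 13.32) in untreated TRα1+m hearts, a difference of −0.33 ± 0.20 that did not pass (adjusted p = 0.598). Il34, the other ligand, differed by −0.30 ± 0.22 (adjusted p = 0.68). Neither ligand was called in any genotype comparison.

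Among the chemokines, Cxcl12, which retains blood-forming and immune cells in tissues, ran from 13.69 to 13.96 (median 13.77) in untreated wild-type and from 12.12 to 13.15 (median 12.84) in untreated TRα1+m hearts, and from 13.16 to 14.56 (median 13.99) and 12.40 to 13.07 (median 12.74) after T3. Cx3cl1, the ligand of Cx3cr1, ran from 5.59 to 6.20 (median 6.08) and from 5.12 to 5.52 (median 5.26) without T3, and from 5.70 to 6.71 (median 6.35) and 5.13 to 5.66 (median 5.53) after it. Both parted the genotypes without overlap at either treatment. Cxcl12 was lower by −1.11 ± 0.21 without T3 (adjusted p = 0.00337) and −1.14 ± 0.21 after it (adjusted p = 0.00194), and Cx3cl1 by −0.68 ± 0.16 (adjusted p = 0.0211) and −0.80 ± 0.16 (adjusted p = 0.00398). Mouse 16, which was above all other mice in most members, stood inside the range of its group in these ligands, at 12.90 and 5.64. Ccl2, the ligand of Ccr2, differed by −0.50 ± 0.22 without T3 (adjusted p = 0.378). C3ar1, the receptor for complement C3a on myeloid cells, was lower by −1.18 ± 0.31 without T3 (adjusted p = 0.0446, lost in 16 of 24 fits without 1 mouse), and over both treatments Ccl6 and Cxcl16 were lower as well.

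**Figure D5:**
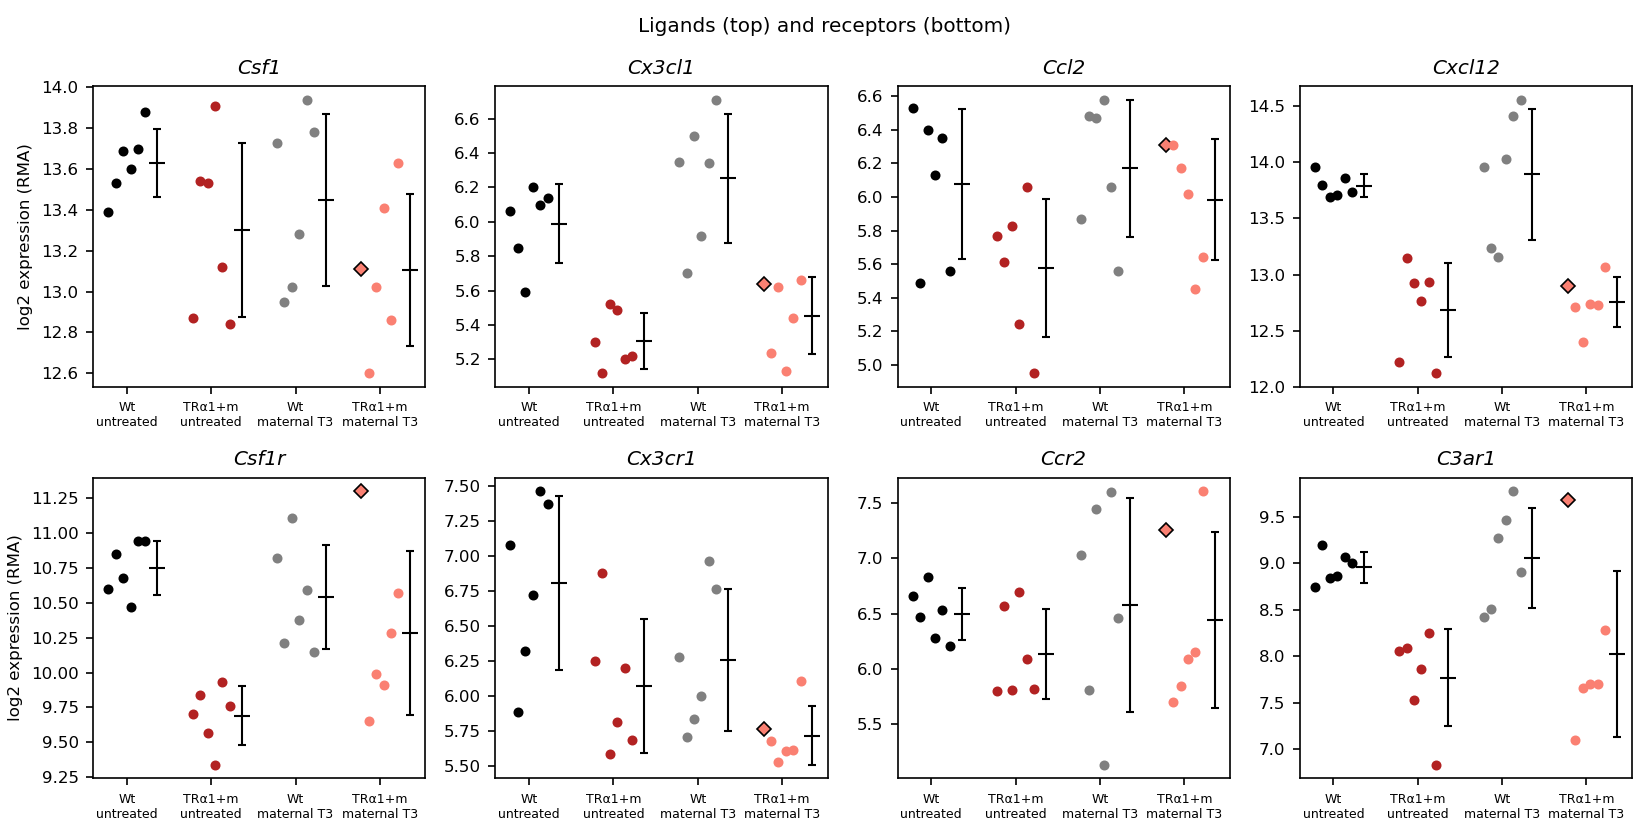
Log2 expression of 4 ligands (top) and 4 myeloid receptors (bottom) in the 24 hearts. Csf1, Cx3cl1 and Ccl2 stand above their receptors, while Cxcl12 and C3ar1 are not partners. Points are mice, bars are the mean and SD of 6 mice and the diamond is mouse 16. Cx3cl1 and Cxcl12 part the genotypes without overlap at both treatments.

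Markers of other cell types differed by genotype too. Of all tested genes, 1.06% were called lower and 0.566% higher without T3, 1.66% and 1.13% after it, and 3.70% and 2.59% over both treatments. Of 11 blood endothelial markers, 3 were lower without T3 (Aqp1, Vwf and Tie1). Aqp1 and Vwf were also lower after T3, and Aqp1, Vwf, Tie1 and Erg over both treatments. Over the 11 the mean levels per mouse were 11.13 to 11.49 in untreated TRα1+m and 11.65 to 11.81 in untreated wild-type hearts. Of 7 fibroblast markers 0 were called without T3, but 4 were higher over both treatments (Col1a1, Col1a2, Col3a1 and Dpt). Mast cells are myeloid too, and of 7 markers 1 was higher and 0 lower without T3 (4 above 0 and 3 below, median 0.45), and 2 were higher after T3 and over both treatments, Tpsb2 and Cpa3 (7 above 0 each time, medians 0.35 and 0.42). The tryptase Tpsb2 was higher by 1.03 ± 0.20 without T3 (adjusted p = 0.00358) and 0.99 ± 0.20 after it (adjusted p = 0.00345). Among markers of T cells, NK cells, dendritic cells, platelets and red blood cells 0 were called by genotype in any of the 3 comparisons, and 2 of 6 B cell markers, Blk and Pax5, were lower over both treatments. The part of these cell types in the levels of the macrophage genes was not tested.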

How the data were processed

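RNA of 24 whole hearts, 6 per group, was hybridised to Clariom S arrays. The deposited values are log2 expression values, which the authors made by RMA in the Transcriptome Analysis Console 4.0.1. Of 28846 probe sets, 6640 controls were left out. All 19572 probe sets with a symbol matched the gene table, 2634 had none, and 22139 genes and unnamed probe sets remained. Those with a mean above 4 in at least 1 group (19801) were fitted with limma 3.58.1 in R 4.3.3 (lmFit and eBayes, 4 group means, all arrays), and p-values were adjusted by Benjamini-Hochberg over all of them. The fit was tested on simulated data. RMA quantile-scales arrays, so that differences are relative to the other genes, and their number limits the precision.

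The members and marker lists were chosen with earlier results of these data known, and the adipocyte and lung lists after values were seen. Full values are given for members called in any comparison, for the 2 of each role class with the largest moderated t for genotype without T3 and for T3 over both genotypes, and for Csf1r, Adgre1, Lyve1, Timd4, Ccr2 and Ly6c2. Alternatives covered filters, scaling, weights, label number range, single mice and the methods' two-factor test, which was corrected here over all tested genes.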

Additional observations from a re-analysis of the deposited data

Results flagged for a closer look

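In 10 of the 156 groups of 6 values (39 members in 4 groups) the highest or lowest mouse lay far from the rest of its group. Chance alone gives about 1 in 20 groups, or 7.8 here. In untreated wild-type hearts, mouse 37 was low in Ptprc (7.99, next 9.02) and in Folr2 (6.27, next 7.02). In untreated TRα1+m hearts, mouse 54 was high in Trem2 (4.93, next 4.17). In T3-exposed wild-type hearts, mouse 15 was high in Itgb2 (6.22, next 5.28) and Trem2 (5.61, next 4.3), mouse 13 was low in Aif1 (5.67, next 6.3), and mouse 47 was high in F13a1 (10.73, next 9.88). In T3-exposed TRα1+m hearts, mouse 16 was high in Lyz2 (13.91, next 12.32) and Cd163 (9.99, next 8.55), and mouse 17 was low in Lyve1 (9.02, next 9.81).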

How the results depend on the processing

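No called result changed direction in any alternative, although the median difference of the members after T3, −0.23, was 0.14 among mice numbered below 20. The number of members called by genotype without T3 was 4 and became 2 among mice numbered above 30, 0 among those below 20, 11 with only the 2 groups fitted, 8 without the 5 mice set apart by the first principal component (chosen after seeing the data) and 15 at an unadjusted p under 0.05. After T3 the count was 1 and became 2, 0, 3 (without the 5 mice) and 10 (unadjusted). Over both treatments it was 9 and became 0 below 20, 14 without the 5 mice, 17 unadjusted and 4 with the methods' two-factor test. Unadjusted, 4 members passed for T3 in wild-type mice, 9 in TRα1+m mice, 9 over both and 1 for the interaction. Leaving out 1 mouse gave 2 to 9 calls without T3, 1 to 5 after T3 and 6 to 16 over both, and 0 to 0 in the other comparisons. The lowest count without T3 came without wild-type mouse 58 or TRα1+m mouse 4, and each highest count without T3-exposed TRα1+m mouse 16. Mouse 16 is in neither group compared without T3, where the median difference was −0.37 with and without it. There it enters the spread shared by all groups and not the differences themselves. What set these mice apart was not tested. The share of promoters with the motif was 22.6% for GAGGAAGT and 61.3% for GAGGAA. The lowest-mean probe set gave no value, since no member had more than 1. No paired analysis was possible because the groups share no label numbers. Low probe sets such as Trem2, with means near the limit of 4, have little room to fall.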
